A study of Mus musculus with 32 samples.

Results

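Abca1, Abcg1, Abcg5 and Abcg8 encode membrane pumps of the ATP-binding cassette (ABC) family that move sterols out of cells. They were chosen by gene symbol, and each was read by 1 probe, so 4 of 8853 tested genes are described here. Their values come from the livers of 32 mice, all female and of the ApoE3Leiden strain, transgenic animals with a human apolipoprotein E variant whose plasma cholesterol rises on cholesterol feeding, so lipoprotein metabolism in all groups, controls included, is that of this strain. Every mouse ate a high-cholesterol diet. It was given alone (HC), with rosuvastatin (HC+RSV), a statin that inhibits cholesterol synthesis, with ezetimibe (HC+EZE), which blocks intestinal cholesterol uptake, or with both drugs (HC+RSV+EZE). There were 8 livers in each of these 4 groups, each on its own Illumina bead array. Ages, doses and the length of treatment are not given in the sources used here.

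Cholesterol that a liver cell does not keep can leave toward the blood or toward the bile. Abca1 loads cholesterol and phospholipid onto lipid-poor apolipoprotein A1, the first step of HDL formation, and Abcg1 passes cholesterol to HDL particles that already carry lipid, a role best known in macrophages. Abcg5 and Abcg8 join into a single working pump at the canalicular membrane of the hepatocyte, which secretes cholesterol and plant sterols into bile. All 4 genes are known targets of the liver X receptors (LXRs), nuclear receptors that respond to oxidized cholesterol.

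Abcg5 and Abcg8 lie head to head on mouse chromosome 17, with starts that face away from each other across a short stretch of DNA. In the RefSeq annotation of GRCm38.p6 Abcg5 runs on the minus strand (chr17:84658174-84683011) and Abcg8 on the plus strand (chr17:84676302-84700333). The start of Abcg5 at base 84683011 and the downstream of 2 listed starts of Abcg8, at base 84683121, leave 109 bases between them. This shared stretch (chr17:84683012-84683120, plus strand, 5′ to 3′) is printed because the levels of these genes, given further on, rose and fell together from liver to liver. Capitals mark TTATCT, the reverse complement of AGATAA, a motif that GATA transcription factors are known to bind.
Abcg5-Abcg8 intergenic: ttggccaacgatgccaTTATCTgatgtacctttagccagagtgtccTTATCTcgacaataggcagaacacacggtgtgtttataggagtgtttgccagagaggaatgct
The motif occurred at 2 places in this stretch, at bases 17 to 22 and 47 to 52 counted from the Abcg5 side. The 300-base promoter windows of Abcg5 and Abcg8, which both hold this stretch, had 3 matches each. Searched on both strands, AGATAA was present at least once in 11.2% of the 32851 promoter windows of RefSeq, each 300 bases long. How many windows held it more than once was not counted. A match describes the letters and was not tested for binding.

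Abca1 lies on the minus strand of chromosome 4 (chr4:53030789-53159988). A known LXR element has 2 copies of a hexamer spaced by 4 bases. The exact form, AGGTCA followed after 4 bases by AGGTCA, was not in the 300-base window of Abca1, Abcg5 or Abcg8, and 0.0152% of all windows held it. A relaxed form, GGTNA followed after 5 bases by GGTCA, written after the Abca1 window had been read, had 1 match there, 53 to 67 bases before the listed start at base 53159895, and was in 0.207% of all windows. The stretch around it (chr4:53159941-53159969, plus strand) lies inside the Abca1 span given above, so it is not upstream of the whole gene. It is shown with the match in capitals, as the 1 match of this form among the members' windows.
Abca1 relaxed DR4: gcgccggGGTTACTACCGGTCAaacgctg
The palindrome CACGTG, to which clock factors are known to bind, also had 1 match in the Abca1 window and 0 in those of Abcg5 and Abcg8, against 7.15% of all windows. Windows for 3 of the 4 members were in the RefSeq table, all except Abcg1. On chromosome 17 Abcg1 spans chr17:31057694-31117984.

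The arrays held liver RNA by its markers. The hepatocyte genes Alb and Ttr were detected on all 32 arrays. Vil1, the only listed intestinal marker with a probe, was detected on 1. Before normalization the mean intensity per array ran from 126.1 to 279.9, and 10724 to 13444 of 25697 probes were detected. The arrays lay on 6 chips, each with all 4 groups, but ezetimibe arrays occupied positions F to H and the others A to C, so position and ezetimibe cannot be told apart. Of all arrays 4 stood apart by their mean correlation with the others (0.925 to 0.951, against at least 0.960 for the other 28). HC had 2 of them (replicates 1 and 8), HC+RSV had replicate 3, HC+EZE had replicate 1, and HC+RSV+EZE had none.

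Values below are normalized log2 intensities unless named otherwise. A level can be compared between groups for 1 gene, but not between genes, since each probe has its own brightness. Differences carry the standard error of a linear model over all 8853 genes (limma), adjusted p-values are Benjamini-Hochberg values over all these genes, and the threshold was 0.05. The number of arrays limits the precision, and p-values refer to the spread between separate animals together with that between arrays.

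The probes differed in how far they stood above background, which bears on precision and not on the genes' levels. Those of Abcg5 (probe intensity 1195 to 5942) and Abcg8 (708 to 4905) were detected on all 32 arrays and stood at the 97.2 and 95.1 percentile of mean probe brightness. The probe of Abca1 (4.5 to 47.0) was detected on 29 arrays and that of Abcg1 (1 to 54.6) on 20, at the 25.6 and 20.5 percentile. With the offset of 16 added before the log, log2 differences of Abca1 and Abcg1 are compressed toward 0.

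**Figure D1:**
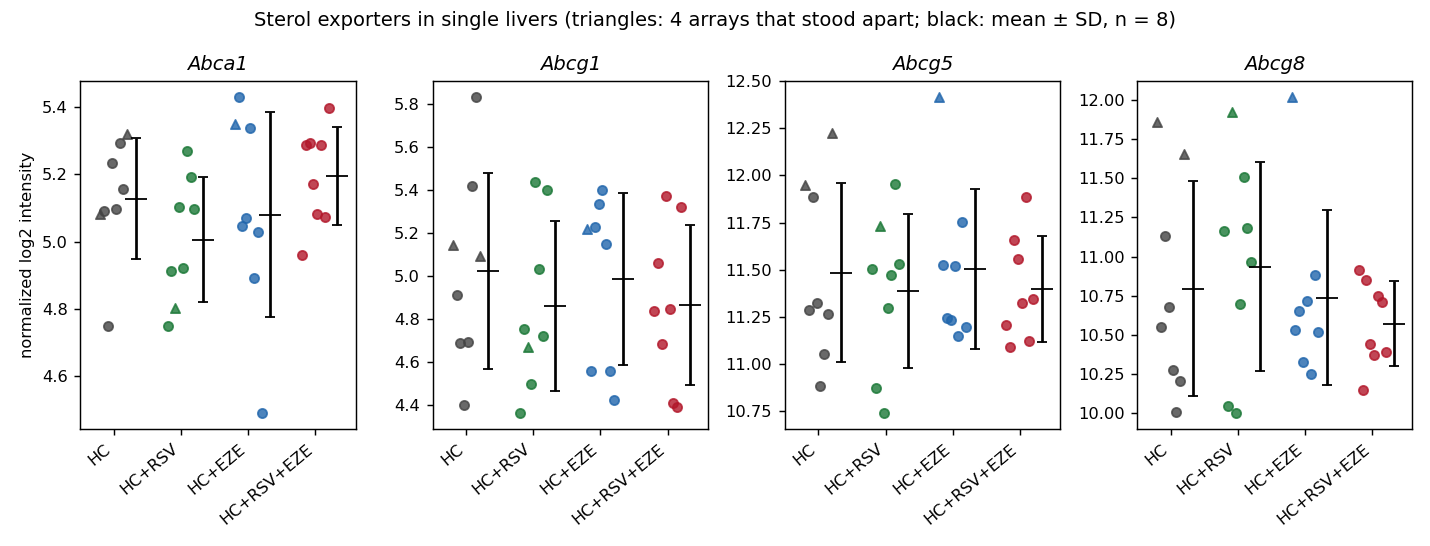
Normalized log2 intensity of each gene (y axes, each with its own range) in every liver by diet (x axes). Triangles are the 4 arrays that stood apart, and black marks give the mean ± SD of 8 livers. The groups overlap for each gene, and the 4 triangles are the highest Abcg8 values of all 32 livers.

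No change of the 4 exporters with either drug or with both was detected. In the model none passed in any of the 6 comparisons, 0 of 24 tests after adjustment and 0 of 24 at an unadjusted p under 0.05. Over all genes, limma called 0% between HC+RSV and HC (2.68% at an unadjusted p under 0.05), 0.0452% between HC+EZE and HC (3.64%) and 0.0452% between HC+RSV+EZE and HC (7.46%). It called 0.339% for ezetimibe averaged over rosuvastatin (9.47%), 0% for rosuvastatin averaged over ezetimibe (2.37%) and 0% for the interaction of the drugs (1.72%). A test for any difference between the 4 groups called 0.215% of genes (4.97% at an unadjusted p under 0.05), and the adjusted p of each exporter there was 0.999 (limma). These counts do not show that the drugs left the genes alone, so the interval of each difference is given.

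Abcg5, a subunit of the biliary sterol pump, ranged from 10.88 to 12.22 in HC (median 11.30), from 10.74 to 11.96 in HC+RSV (median 11.49), from 11.15 to 12.42 in HC+EZE (median 11.38) and from 11.09 to 11.88 in HC+RSV+EZE (median 11.33). The 4 ranges overlap, and the highest liver of all was in HC+EZE. Group means were 11.50 ± 0.42 (SD, n = 8) in HC+EZE, 11.48 ± 0.48 in HC, 11.40 ± 0.28 in HC+RSV+EZE and 11.39 ± 0.41 in HC+RSV, each neighbour in this order within the SD of the next. The difference from HC was -0.10 ± 0.19 with rosuvastatin, 0.02 ± 0.19 with ezetimibe and -0.09 ± 0.19 with both. As folds these have 95% intervals of 0.711 to 1.23, 0.772 to 1.33 and 0.716 to 1.24. Averaged over rosuvastatin, ezetimibe went with a difference of 0.02 ± 0.14, or 0.833- to 1.23-fold. It was higher with ezetimibe on 4 of the 6 chips (-0.31 to 0.32).

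Abcg8, its partner subunit, varied more from liver to liver: its residual SD of 0.57 was at the 93.0 percentile of all genes. It ranged from 10.01 to 11.86 in HC (median 10.62), from 10.003 to 11.92 in HC+RSV (median 11.06), from 10.25 to 12.02 in HC+EZE (median 10.59) and from 10.15 to 10.91 in HC+RSV+EZE (median 10.58). The ranges overlap, with the narrowest in HC+RSV+EZE. The means ran from 10.94 ± 0.67 (SD, n = 8) in HC+RSV through 10.80 ± 0.69 in HC and 10.74 ± 0.56 in HC+EZE to 10.57 ± 0.27 in HC+RSV+EZE, each step within the SD of its neighbours. The difference from HC was 0.14 ± 0.27 with rosuvastatin (0.756- to 1.61-fold), -0.06 ± 0.27 with ezetimibe (0.659- to 1.40-fold) and -0.22 ± 0.27 with both (0.588- to 1.25-fold). Ezetimibe averaged over rosuvastatin gave -0.21 ± 0.19 (limma, adjusted p = 0.718), with lower values on 4 of the 6 chips (-0.89 to 0.28). The interaction was -0.31 ± 0.38 (limma, adjusted p = 0.99996).

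The arrays that stood apart bore on the spread of Abcg8 most. All 4 had higher Abcg8 values (11.65 to 12.02) than any of the other 28 (10.003 to 11.51), and Abcg5 was also high in them (11.73 to 12.42, against 10.74 to 11.96). Without them the Abcg8 mean of HC was 10.48 ± 0.40 (n = 6), that of HC+RSV 10.79 ± 0.58 (n = 7), that of HC+EZE 10.55 ± 0.22 (n = 7) and that of HC+RSV+EZE stayed at 10.57 ± 0.27 (n = 8). The difference between HC+RSV+EZE and HC then went from -0.22 to 0.10 ± 0.20, that between HC+RSV and HC was 0.32 ± 0.20, and none passed. Several lists moved with this split, so it is not particular to 1 cell type. The mean of the 3 measured red cell and platelet markers, of 6 listed, was 7.89 on the 4 arrays and 8.68 on the others. Macrophage markers were also lower there (8.70 against 8.91). Other hepatic ABC transporters (8.51 against 8.11), nuclear receptors of sterol and bile acid control (8.33 against 7.92) and hepatocyte markers (11.84 against 11.61) were higher. With group means subtracted Hba-a1, a haemoglobin chain, had an r of -0.69 with Abcg8 and -0.57 with Abcg5, Pf4, a platelet chemokine, -0.50 and -0.28, and Alas2, an enzyme of red cell haem synthesis, 0.02 and 0.16. Among the r of all genes Hba-a1 stood at the 4.1 and 2.4 percentile, Pf4 at the 11.8 and 16.6 and Alas2 at the 48.0 and 64.9. Without the 4 arrays Hba-a1 had an r of -0.12 and 0.05. The part of red cells, platelets or other cells in the high values was not tested.

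Abca1, which starts HDL formation, ranged from 4.75 to 5.32 in HC (median 5.13), from 4.75 to 5.27 in HC+RSV (median 5.01), from 4.49 to 5.43 in HC+EZE (median 5.06) and from 4.96 to 5.40 in HC+RSV+EZE (median 5.23). The groups overlap, and the highest and the lowest liver were both in HC+EZE. The means were 5.19 ± 0.15 (SD, n = 8) in HC+RSV+EZE, 5.13 ± 0.18 in HC, 5.08 ± 0.31 in HC+EZE and 5.01 ± 0.19 in HC+RSV, with each neighbour within the SD of the next. Its probe was detected on 7 of 8 arrays in HC, HC+RSV and HC+EZE and on 8 of 8 in HC+RSV+EZE. The difference from HC was -0.12 ± 0.12 with rosuvastatin (0.781- to 1.08-fold), -0.05 ± 0.12 with ezetimibe (0.823- to 1.14-fold) and 0.07 ± 0.12 with both (0.891- to 1.23-fold). The interaction of the drugs was 0.24 ± 0.16 (limma, unadjusted p = 0.155). In the authors' log2 values the differences were larger, and so were their errors: -0.24 ± 0.24 with rosuvastatin, -0.18 ± 0.24 with ezetimibe, 0.13 ± 0.24 with both and 0.56 ± 0.35 for the interaction, none past the threshold.

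Abcg1, which exports cholesterol to formed HDL, was detected on 5 of 8 arrays in each group. It ranged from 4.40 to 5.83 in HC (median 5.002), from 4.37 to 5.44 in HC+RSV (median 4.74), from 4.43 to 5.40 in HC+EZE (median 5.19) and from 4.39 to 5.37 in HC+RSV+EZE (median 4.84). The groups overlap almost wholly, apart from 1 HC liver above the rest. The means were 5.02 ± 0.46 (SD, n = 8) in HC, 4.99 ± 0.40 in HC+EZE, 4.87 ± 0.37 in HC+RSV+EZE and 4.86 ± 0.40 in HC+RSV, each within the SD of the next. The difference from HC was -0.16 ± 0.20 with rosuvastatin, -0.04 ± 0.20 with ezetimibe and -0.16 ± 0.20 with both, with 95% intervals of 0.678- to 1.18-fold, 0.739- to 1.28-fold and 0.681- to 1.18-fold. Rosuvastatin averaged over ezetimibe gave -0.14 ± 0.14 (0.746- to 1.10-fold). In the authors' log2 values these differences were -0.54 ± 0.63 with rosuvastatin, -0.45 ± 0.63 with both and -0.46 ± 0.44 for rosuvastatin averaged, so the folds above hold for the offset used here. All 9 measured markers of macrophages were below 0 with rosuvastatin, with a median of -0.28 for HC+RSV against HC and -0.23 for rosuvastatin averaged (0.001 and -0.001 over all genes), and 0 of them passed. Their part in the Abcg1 values was not tested.

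**Figure D2:**
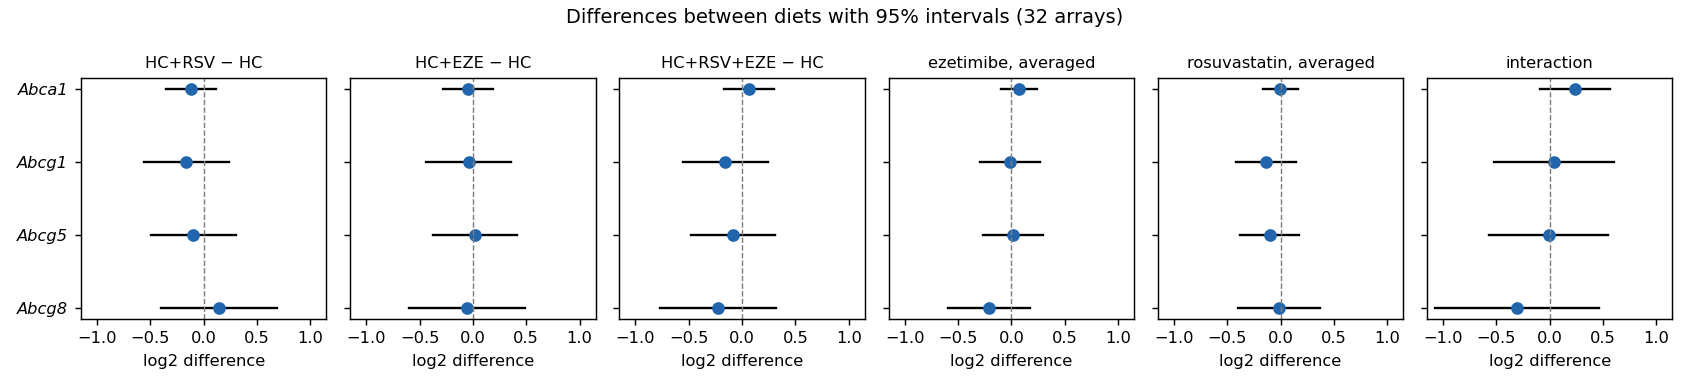
Log2 difference (x axes) of each gene in the 6 comparisons, as points with 95% intervals from the model over all 32 arrays. Each interval includes 0, and those of Abcg8 are the widest.

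Other genes of the sterol export pathway were read from lists. Of 121 genes in the pathway and cell marker lists 88 were measured, and 0 of them passed over all genes in any of the 6 comparisons of the main model. Among 11 measured targets of LXR other than the exporters, ezetimibe averaged over rosuvastatin gave a median difference of 0.003, beside -0.003 over all genes, with 6 above and 5 below 0. The members with the largest differences were Lpl, lipoprotein lipase (-0.21 ± 0.32), Abcd2, a peroxisomal fatty acid transporter (-0.20 ± 0.19), and Pltp, the phospholipid transfer protein (0.18 ± 0.16). Of the 4 measured receptors of the LXR and RXR list, Nr1h3, which encodes LXR alpha, differed by 0.007 ± 0.075, Rxra by 0.01 ± 0.11, Rxrb by -0.13 ± 0.11 and Rxrg by -0.23 ± 0.12.

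Genes that supply cholesterol to the exporters or receive it were also without a call in the main model. Among 9 genes of intracellular cholesterol handling, 4 were above and 5 below 0 with ezetimibe (median -0.12). Npc2, a lysosomal cholesterol carrier, differed by 0.38 ± 0.13 (limma, adjusted p = 0.282). With chip as a block Npc2 differed by 0.44 ± 0.11 (limma, adjusted p = 0.0331). That model called more genes in all than the 0.339% of the main model, with counts given under the processing alternatives. Stard4, a cytosolic sterol carrier, differed by 0.30 ± 0.21 and Lipa, the lysosomal lipase, by -0.25 ± 0.12. Of 9 genes of HDL formation 4 were above and 5 below 0 (median -1.9e-05), with Apom, an HDL apolipoprotein, at 0.19 ± 0.14, Lrp1, a lipoprotein receptor, at -0.18 ± 0.17 and Pltp as above. Of 13 other hepatic ABC transporters 2 were above and 11 below 0, with a median of -0.08. Abcb11, the bile salt export pump, differed by -0.40 ± 0.14 (limma, adjusted p = 0.287), Abcb4, which moves phospholipid into bile, by -0.27 ± 0.16 and Abca3, a lipid transporter, by -0.20 ± 0.12. Among 6 nuclear receptors of sterol and bile acid control 3 were above and 3 below 0 (median -0.001), with Hnf4a, a master regulator of hepatocyte genes, at -0.31 ± 0.17, Nr1i3 at 0.28 ± 0.11 and Nr5a2, a known activator of bile acid genes, at -0.26 ± 0.14.

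Abcg5 and Abcg8 rose and fell together across single livers. Since the 4 arrays that stood apart form a cluster of high values, the relation was taken first over the other 28 livers, where Pearson's r was 0.72 (permutation test, p = 1e-05, the smallest that 100000 permutations give, and 6e-05 adjusted over 6 pairs) and Spearman's rho 0.73 (permutation p = 3e-05, adjusted 0.00018). Over all 32 livers r was 0.82 and rho 0.81 (permutation p = 1e-05 for each, adjusted 6e-05). Without the 2 livers farthest from the median of Abcg5, r was 0.75 in 30 livers. With values centred within each chip it was 0.83, and with the authors' log2 values 0.82. On the 2 chips with 6 arrays r was 0.90 (exact permutation p = 0.025, adjusted over both chips 0.05) and 0.78 (exact permutation p = 0.0861).

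Within the groups the relation was clear in HC (r = 0.92, exact permutation p = 0.00427, n = 8), HC+RSV (0.86, exact permutation p = 0.013) and HC+EZE (0.95, exact permutation p = 0.00332), whose p-values adjusted over the 4 groups were 0.00853, 0.0173 and 0.00853. In HC+RSV+EZE r was 0.36 (exact permutation p = 0.3775). That group had the narrowest range of Abcg8 over 8 livers and none of the arrays that stood apart. HC+EZE without its array that stood apart had a smaller SD of Abcg8 (0.22, against 0.27) and an r of 0.80. Whether the r of HC+RSV+EZE differs from those of the other groups was not tested, and neither was the part of the Abcg8 range in it. Without the arrays that stood apart r was 0.87 in HC (n = 6), 0.87 in HC+RSV (n = 7) and 0.80 in HC+EZE (n = 7), with exact permutation p-values of 0.0528, 0.0258 and 0.0266 that were 0.0532 or above after adjustment.

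**Figure D3:**
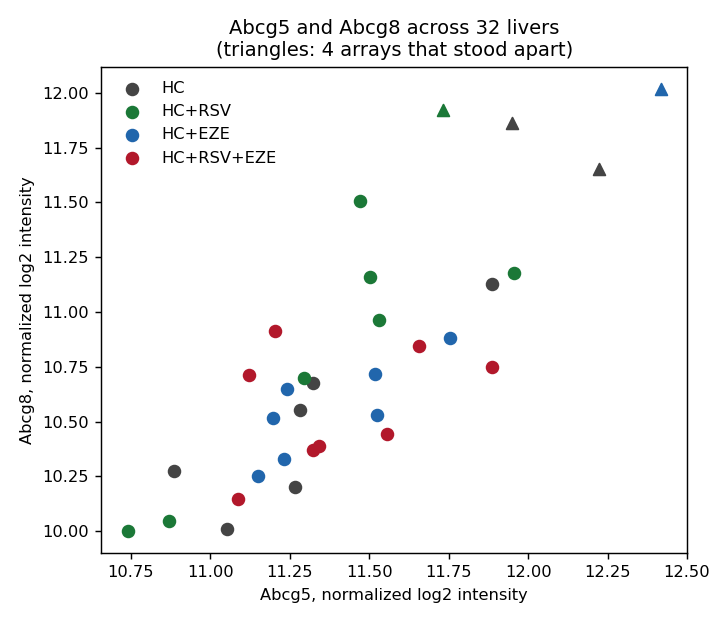
Normalized log2 intensity of Abcg8 (y axis) against Abcg5 (x axis) in each of 32 livers, coloured by diet. Triangles are the 4 arrays that stood apart, at the upper right, and the other 28 livers also rise together (r = 0.72).

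Of the 8853 genes, the 1 whose pattern over the 32 livers was most like that of Abcg5 was Abcg8, with r = 0.86 after group means were subtracted. It held this rank without the 4 arrays that stood apart (r = 0.76, 28 livers) and with chip means removed as well (0.90). Next for Abcg5 came Lima1 (r = 0.79), a cytoskeletal protein known from intestinal cholesterol uptake, and Adssl1 (0.76). With chip means removed Lima1 took place 4 and Adssl1 place 404. For Abcg8 the leading genes were Cdk2, a cell cycle kinase (0.89), Nxt2, an RNA export factor (0.88), and Lima1 (0.87), with Abcg5 in place 5. Without the 4 arrays these 3 were at 0.74, 0.65 and 0.73, in places 4, 20 and 5, and with chip means removed in places 14, 13 and 1.

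The pair was set beside the other genes that start head to head. RefSeq listed 1665 pairs of genes on opposite strands whose starts faced away from each other within 1000 bases, and 310 pairs had both genes measured. Their median r across livers was 0.08, with 58.4% above 0, and Abcg5 and Abcg8 had the highest, at 0.86. Without the 4 arrays that stood apart the median was 0.07 and this pair took place 5 of 310 at 0.76. With chip means removed it took place 3 at 0.90. These ranks are a description, since the pairs share the same livers and arrays. The pairs were not matched for probe brightness, in which Abcg5 and Abcg8 stood at the 97.2 and 95.1 percentile of all genes.

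**Figure D4:**
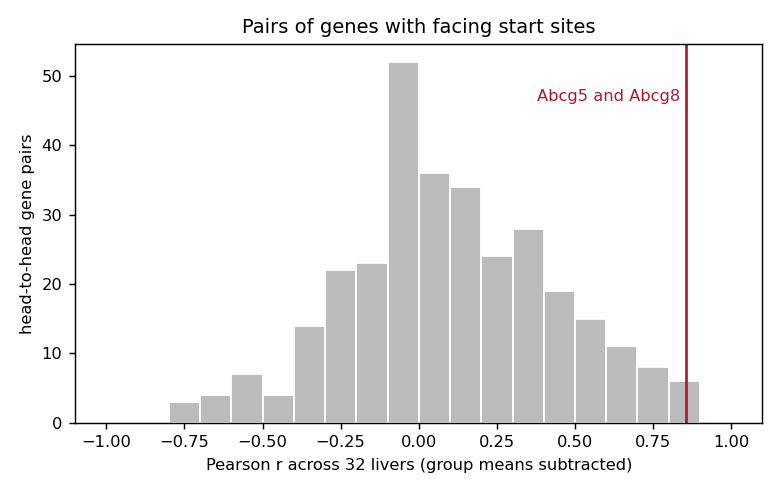
Number of head-to-head gene pairs (y axis) by their Pearson r across 32 livers after group means were subtracted (x axis), for 310 measured pairs. The red line marks Abcg5 and Abcg8 at 0.86, at the upper end of a distribution with a median of 0.08.

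The other pairs of exporters had weak relations. Over 32 livers r was 0.30 for Abca1 with Abcg1, 0.22 for Abca1 with Abcg5, -0.02 for Abca1 with Abcg8, 0.02 for Abcg1 with Abcg5 and -0.09 for Abcg1 with Abcg8, and the smallest permutation p among them, adjusted over 6 pairs, was 0.291. Abca1 and Abcg5 reached 0.42 with values centred within chip (permutation p = 0.0174, adjusted 0.0522), and rho there was 0.45 (permutation p = 0.0113, adjusted 0.0340). Abca1 and Abcg1 were close to background, and its part in these weak relations was not tested.

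Abcg1 went up and down with the markers of macrophages across livers. The relation of Abcg1 with these markers was chosen after values were seen, so its p-values are not those of a prior test. Abcg1 was detected on 20 of the 32 arrays, and the part of background in the relation was not tested. Its level had r = 0.57 with the mean of 9 macrophage markers over 32 livers (permutation p = 4e-04, adjusted over 8 relations 0.0032) and rho = 0.54 (permutation p = 0.00178, adjusted 0.0142). The relation rested in part on HC replicate 7, which was highest in both (marker mean 10.003, next highest 9.31). Without that liver r was 0.45 (permutation p = 0.0116, 31 livers), and without the 2 livers farthest from the median of the markers 0.45 (permutation p = 0.0122). Leaving out the 4 arrays that stood apart gave 0.59, and r was 0.47 with values centred within chip. With the authors' log2 values of Abcg1 it was 0.46. In the groups (n = 8) r was 0.77 in HC (exact permutation p = 0.0427), 0.63 in HC+RSV (exact permutation p = 0.0724), 0.48 in HC+EZE (exact permutation p = 0.2405) and 0.23 in HC+RSV+EZE (exact permutation p = 0.586). None passed after adjustment over the 4 groups (smallest exact permutation p adjusted 0.145), and without replicate 7 the r of HC was 0.42 (exact permutation p = 0.341, n = 7). In bulk liver fewer cells of a type and less RNA per cell cannot be told apart.

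Each of the 9 measured macrophage markers, of 15 listed, had an r above 0 with Abcg1 once group means were subtracted, with a median of 0.40, while 51.1% of all genes were above 0 (median 0.005). The highest were Lyz2, lysozyme (0.50), Adgre1, the F4/80 antigen (0.45), and Vsig4, a complement receptor of Kupffer cells (0.44), and the lowest was Clec4f, a lectin of Kupffer cells (0.08). The marker mean ran from 8.47 to 10.003 under HC, from 8.06 to 9.24 under HC+RSV, from 8.69 to 9.31 under HC+EZE and from 8.28 to 9.31 under HC+RSV+EZE. Of the hepatocyte markers 0 of 9 had an r above 0 with Abcg1 (median -0.23). Markers of other cells also lay mostly above 0, with 6 of 7 stellate cell markers (median 0.18), 3 of 3 cholangiocyte markers (0.18) and 5 of 8 endothelial markers (0.12), and whether the macrophage list differs from these was not tested. For Abca1, Abcg5 and Abcg8 the r with the macrophage mean was 0.10, -0.03 and -0.33, and none passed (smallest permutation p adjusted over 8 relations 0.177).

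**Figure D5:**
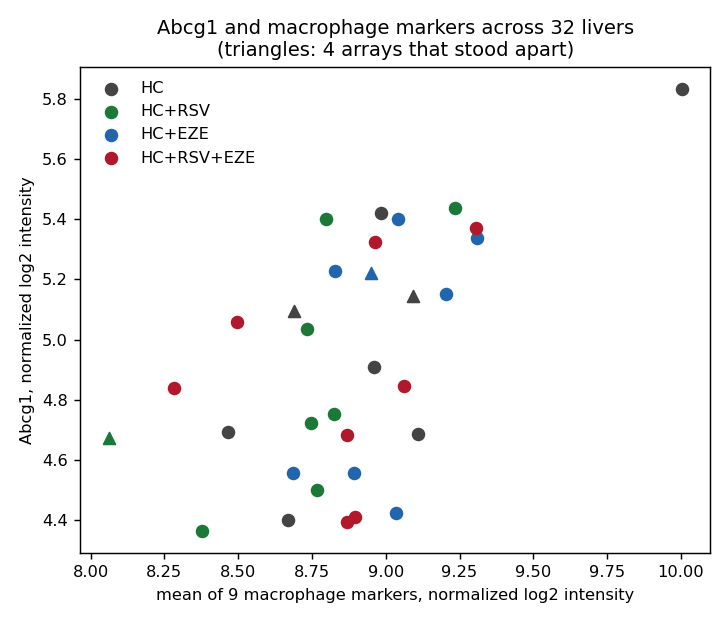
Normalized log2 intensity of Abcg1 (y axis) against the mean of 9 macrophage markers (x axis) in each of 32 livers, coloured by diet, with triangles for the 4 arrays that stood apart. The HC liver at the upper right is HC replicate 7, and r fell from 0.57 to 0.45 without it.

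The gene closest to Abcg1 in pattern was Zfp532, a zinc finger gene (r = 0.75), followed by Smpdl3a (0.72), a phosphodiesterase and known LXR target, and 2610301B20Rik (0.70). Without the 4 arrays that stood apart these held the same places, at 0.76, 0.75 and 0.72, and with chip means removed they were at 0.71, 0.60 and 0.56, in places 1, 19 and 39. The other LXR targets did not follow Abcg1 as a list, with a median r of -0.07 and 5 of 11 above 0. Nr1h3 had an r of 0.36 and Lpl of 0.33. Mean log2 intensities of Zfp532, Smpdl3a and 2610301B20Rik were 5.78, 8.22 and 4.53, beside 4.93 for Abcg1. The part of background in their likeness to Abcg1 was not tested.

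Abca1 was closest to Tnc, the matrix protein tenascin C (r = 0.71), Gask1b (0.65) and Mns1 (0.63), with 0.70, 0.64 and 0.61 without the 4 arrays and places 1, 18 and 8 with chip means removed. Tnc, Gask1b and Mns1 had mean log2 intensities of 5.48, 4.93 and 4.65, beside 5.10 for Abca1. The part of background in their likeness was not tested. Of 7 measured stellate cell markers 6 had an r above 0 with Abca1 (median 0.30), and of 11 LXR targets 7 did (median 0.01). Over all genes 52.9% were above 0 with Abca1 (median 0.015). With Abcg8, 8 of 11 LXR targets had an r above 0, with a median of 0.19, and 0.13 without the 4 arrays. The highest were Lpcat3, a phospholipid-remodelling enzyme (0.66, and 0.51 without the 4 arrays), Abcd2 (0.49, and 0.21 without them) and Scd1, a fatty acid desaturase (0.45, and 0.35 without them). The lowest were Nr1h3 (-0.30), Lpl (-0.26) and Pltp (-0.19). Srebf1, the LXR-driven regulator of fatty acid synthesis, had an r of 0.43 with Abcg8, and 0.65 without the 4 arrays. With the other hepatic ABC transporters Abcg8 had a median r of 0.46 and 12 of 13 above 0, but 0.08 without the 4 arrays. Over all genes the median r with Abcg8 was 0.05 and 54.1% were above 0, with a wide spread. Lpcat3 stood at the 96.2 percentile of all genes, Abcd2 at the 87.0, Scd1 at the 83.8 and Srebf1 at the 82.3. Nr1h3, Lpl and Pltp stood at the 22.6, 25.5 and 30.8 percentile. These correlations across livers are descriptions that share arrays, chips and RNA quality.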

How the data were processed

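The authors deposited probe intensity without normalization between arrays. Values below 0 show that a background was subtracted. With each intensity the authors deposited a detection fraction, taken as 1 minus the detection p. For 15505 of 25697 probes log2 values were also deposited, whose distributions are nearly equal between arrays. The subtraction and the choice of these probes are steps not given in the sources used here. Among tools, the submitters' processing notes name limma.

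Intensities were background corrected (limma 3.58.1, R 4.3.3, normal-exponential model on the detection p, offset 16), quantile normalized and log2 transformed. Probes with detection p under 0.05 on at least 8 arrays were kept (12844). The brightest probe stood for a gene, 8853 in all. Symbols of the platform annotation were brought up to date by Entrez ID (14548 of 14557 probes with a symbol). All 4 exporters passed the filter. A model of the 4 groups (lmFit, eBayes) was fitted to 32 arrays with 28 residual degrees of freedom. Relations used permutation tests (100000 permutations, or exact under 10 livers, two-sided). The scripts were tested on simulated data. No arrays were identical (highest correlation 0.988). Other samples that the labels mention were not analysed here.

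The members and lists were chosen with earlier results of these data known. Named were the exporters, the 3 members of a list with the largest difference for ezetimibe averaged over rosuvastatin, and the 3 genes most like each exporter. List members given beside the relations, the relaxed motif and the relations with markers and array intensity were chosen after values were seen. The alternatives were other background correction, scaling, filters and probe choice, the authors' values, chip or replicate number as a block, array weights and leaving out the 4 arrays that stood apart.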

Additional observations from a re-analysis of the deposited data

Results flagged for a closer look

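In 2 of the 16 sets of 8 livers, 4 groups of each of 4 genes, 1 liver lay far from the rest by the gap to its nearest neighbour over the whole range, against a limit of 0.526. Chance gives about 1 in 20 such flags per group. HC+EZE replicate 1 had Abcg8 at 12.02, the next liver at 10.88, a gap ratio of 0.642, and its Abcg5 of 12.42 came close to the limit with a ratio of 0.524. It is 1 of the 4 arrays that stood apart. HC replicate 3 had Abca1 at 4.75, the next liver at 5.08, a gap ratio of 0.583.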

How the results depend on the processing

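Under 13 alternatives 0 of 306 recomputed differences of the exporters passed the threshold and 42 changed sign, all of them differences that had not passed, and the cause was not tested. Equal medians moved the median of all genes to -0.11 for HC+EZE against HC, -0.18 for HC+RSV+EZE against HC and -0.12 for ezetimibe averaged over rosuvastatin. There Abcg5 was at -0.086 for HC+EZE and -0.12 for ezetimibe averaged, and Abca1 at -0.057 for HC+RSV+EZE and -0.022 for ezetimibe averaged. Without background correction Abca1 was at 0.0018 for rosuvastatin averaged over ezetimibe. Cyclic loess gave Abcg5 -8.1e-05 for ezetimibe averaged and Abcg8 0.036 for rosuvastatin averaged, and the authors' values gave Abcg1 0.0056 for ezetimibe averaged and Abca1 0.035 for rosuvastatin averaged.

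With chip as a fixed block Abcg1 was at 0.092 for HC+EZE, 0.014 for ezetimibe averaged and -0.16 for the interaction. Abcg5 was at 0.0075 for HC+RSV+EZE and 0.12 for the interaction, and for rosuvastatin averaged Abca1 was at 0.0032 and Abcg8 at 0.026. As a random block chip gave Abcg1 0.030 for HC+EZE and -0.063 for the interaction, Abcg8 0.0066 for rosuvastatin averaged and Abcg5 0.060 for the interaction. Array weights gave Abcg1 0.014 for HC+EZE and 0.021 for ezetimibe averaged, Abcg5 0.062 for HC+RSV+EZE and 0.13 for the interaction, and Abca1 0.041 and Abcg8 0.0015 for rosuvastatin averaged.

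Without the 4 arrays that stood apart Abcg5 was at 0.055 for HC+RSV, 0.11 for HC+RSV+EZE and 0.039 for rosuvastatin averaged. Abcg8 was at 0.079 for HC+EZE, 0.097 for HC+RSV+EZE and 0.17 for rosuvastatin averaged, and Abca1 at 0.042 for the last. The r of Abcg1 with Abcg5 was -0.11. With chip as a fixed block as well, Abcg1 was at 0.0033 for HC+EZE and -0.10 for the interaction, and Abcg8 at 0.085, 0.14 and 0.17 for HC+EZE, HC+RSV+EZE and rosuvastatin averaged. Abcg5 was at 0.18, 0.028 and 0.15 for HC+RSV+EZE, rosuvastatin averaged and the interaction, and Abca1 at 0.043 for rosuvastatin averaged. The r of Abca1 with Abcg8 was 0.16 with values centred within chip.

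Counts of genes called moved by over 1.5 times from 4 for HC+EZE, 4 for HC+RSV+EZE and 30 for ezetimibe averaged. For HC+EZE they were 2 with equal medians, 0 with the authors' values, and 10 with chip as a block without the 4 arrays. For HC+RSV+EZE they were 9 with equal medians, 2 with the authors' values, 8 with every kept probe, 10 with chip fixed, 17 with chip random, 10 with the replicate block, 8 with array weights, 9 without the 4 arrays and 14 with chip as a block as well. For ezetimibe averaged they were 90 with chip fixed, 67 with chip random, 53 with the replicate block, 49 with array weights and 110 with chip as a block without the 4 arrays. Replicate numbers were not taken to pair the livers in the main model. Deviations of livers with the same number correlated from -0.24 to 0.76 in 48 pairs (median 0.18). Those of other numbers correlated from -0.64 to 0.69 in 336 pairs (median -0.06). HC+RSV and HC+EZE livers of the same number shared a chip in 8 of 8 cases, and the part of the chip in these medians was not tested. The stricter filter (detection p under 0.01 on at least 16 arrays) left Abcg1 untested. Sizes of Abca1 and Abcg1 differences moved by over 1.5 times with the authors' values, as given above. Signal over background limits Abca1 and Abcg1.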

Other observations

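No exporter had a relation with the mean intensity of the array before normalization that passed. For Abcg5 r was 0.39 (permutation p = 0.0277, adjusted over 8 relations 0.111) and 0.07 with values centred within chip. The same r over all arrays for Abcg8 was 0.27, for Abcg1 0.29 and for Abca1 0.09. Within a liver the log2 value of Abcg8 minus that of Abcg5 averaged -0.69 ± 0.31 (SD, n = 8) under HC, -0.45 ± 0.38 under HC+RSV, -0.77 ± 0.20 under HC+EZE and -0.83 ± 0.31 under HC+RSV+EZE. These differences hold the probes' own brightness, so only their spread between livers and groups can be read, and no test of them was made. With group means subtracted, 4 of the 9 measured macrophage markers had an r above 0 with Abcg8, with a median of -0.27, and -0.12 without the 4 arrays that stood apart. The lowest were C1qc (-0.72), C1qb (-0.62) and C1qa (-0.57), which encode the chains of complement C1q, with -0.52, -0.44 and -0.12 without the 4 arrays. Those above 0 were Clec4f (0.48), Vsig4 (0.29), Adgre1 (0.28) and Timd4 (0.22), with 0.10, 0.09, -0.02 and 0.002 without them. Over all genes 54.1% were above 0 with Abcg8 (median 0.05). Among the r of all genes C1qc, C1qb and C1qa stood at the 3.1, 7.0 and 8.9 percentile and Clec4f at the 86.0. The markers named here were picked out after their values were seen.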
